A study of Mus musculus with 12 samples.

Results

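Titin (Ttn) was represented by 28 sites of N6-methyladenosine (m6A), the commonest internal methyl mark of mRNA, in the authors' deposited tables of sites that differed between cold and thermoneutral mouse inguinal white adipose tissue (iWAT). The 28 sites were all rows of both tables that name Ttn, out of 739 listed sites in 574 genes. The rows had been selected by the size and p-value of the change between temperatures, so direction, fold and p-value of the 28 sites are described here with no test. All 28 were listed as higher in cold and 0 as lower. Among all 739 listed sites 40.7% were higher in cold. Of the 574 genes, 471 had 1 listed site and 16 had sites in both directions. Sites of the same gene thus mostly shared a direction.

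iWAT is a fat pad under the skin of the groin, taken from 2-month-old C57BL/6 males (C57BL/6J in the methods of the study). The cold group was housed at 4 °C and the thermoneutral group at 30 °C, both for 7 days. No allele, transgene or agent separated the groups. RNA was mapped by methylated RNA immunoprecipitation sequencing (MeRIP-seq), in which pieces of mRNA bound by a polyclonal antibody to m6A (m6A IP) are sequenced beside pieces that skipped the pull-down (input). The 12 libraries formed 4 groups of 3, which were cold m6A IP, cold input, thermoneutral m6A IP and thermoneutral input. The whole pad was taken, while the sample labels also give adipocytes as the source, and whether adipocytes were separated from other cells of the pad is not stated.

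The tables hold only the finished comparison. They give 1 fold, 1 p-value and 1 false discovery rate (FDR) per site, and no value of a single library, so no spread between animals, no depth and no SD stands behind any fold below. The fold is a linear ratio, here of cold over thermoneutral. Whether inputs entered it is not given in the sources used here, and it may mix how much of a message there was with how far it was methylated. More cells of a type and more RNA per cell cannot be told apart in whole tissue.

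Titin is the giant elastic protein of striated muscle, in which a single molecule reaches from the Z-disc to the M-band of the sarcomere. Its amino end is anchored in the Z-disc, the following stretch in the I-band acts as a spring, and the long stretch in the A-band runs along the myosin filament and is built of repeated immunoglobulin and fibronectin domains. The messages are spliced into several forms, of which N2-A is the form of skeletal muscle and N2-B carries a spring element of heart titin. White fat cells are not known for titin, and a sarcomere is the hallmark of skeletal and heart muscle cells. m6A is placed on nascent mRNA by a complex with the methyltransferase Mettl3, mostly where an adenosine is followed by a cytosine, with GGAC as the core of the commonest sequence, and it tends to gather in long internal exons and near stop codons.

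Sites were numbered 1 to 28 from the 5' end of the message. Ttn lies on the minus strand of chromosome 2 at chr2:76703984-76982547 (GRCm38.p6, the assembly behind mm10). The transcript used is the N2-A form of RefSeq, the form the tables name, with 313 exons, 101674 bases and a coding sequence of 100404 bases. The following 30-base stretches, on the transcribed strand and written as DNA, each hold the GGAC nearest the centre of a site, in capitals, with 13 bases on either side. They are shown for the 4 sites above 50-fold and then for the 5 sites of smallest fold, so that the letters at both ends of the range can be compared.
Site 23, 123-fold, chr2:76726383-76726412: aagctgacttaggGGACtggcacaaagtaa
Site 8, 90.0-fold, chr2:76766622-76766651: agtgattgggtgaGGACagaggaagttgtt
Site 20, 79.3-fold, chr2:76736886-76736915: aacccaaaatagtGGACtcgggcaagacaa
Site 4, 75.1-fold, chr2:76814668-76814697: caacctggatgaaGGACggcagcaacatcc
Site 18, 6.87-fold, chr2:76738700-76738729: ccttgacaggccaGGACctccaggacccat
Site 24, 6.59-fold, chr2:76725172-76725201: acaacaaaagacaGGACcaccctgactgta
Site 21, 6.41-fold, chr2:76731140-76731169: gatgaagaagaatGGACcattgtctctacc
Site 5, 5.72-fold, chr2:76795998-76796027: tcactgaccgagcGGACagctgtgagttca
Site 17, 5.51-fold, chr2:76740400-76740429: atggtactaacatGGACacgtccagtggat

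The central 300 bases of the sites at both ends of the range follow, site 23 with the largest fold (chr2:76726171-76726470) and site 17 with the smallest (chr2:76740321-76740620). Capitals mark each match to DRACH, the wider m6A sequence in which D stands for any base but C, R for A or G, and H for any base but G. A GGAC followed by A, C or T is also a DRACH. Site 23 held 9 DRACH matches and 1 GGAC in this stretch, and site 17 held 6 DRACH matches and 2 GGAC.
Site 23, centre: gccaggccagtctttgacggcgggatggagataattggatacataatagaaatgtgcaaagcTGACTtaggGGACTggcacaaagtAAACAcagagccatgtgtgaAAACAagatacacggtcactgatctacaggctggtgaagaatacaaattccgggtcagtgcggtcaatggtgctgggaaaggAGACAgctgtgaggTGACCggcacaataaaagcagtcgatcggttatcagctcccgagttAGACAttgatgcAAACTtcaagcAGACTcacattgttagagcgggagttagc
Site 17, centre: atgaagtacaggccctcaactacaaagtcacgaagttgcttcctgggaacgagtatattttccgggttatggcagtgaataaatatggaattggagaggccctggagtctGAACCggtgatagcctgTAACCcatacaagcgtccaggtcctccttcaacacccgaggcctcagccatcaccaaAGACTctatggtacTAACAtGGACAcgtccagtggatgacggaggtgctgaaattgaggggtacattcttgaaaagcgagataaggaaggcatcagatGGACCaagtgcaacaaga

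The folds of the 28 sites ran between 5.51 and 123, with a median of 11.9 and quartiles of 7.12 and 23.5. The largest fold was 22.3 times the smallest. Of the 28 sites, 11 lay below 10-fold, 7 between 10- and 20-fold, 6 between 20- and 50-fold and 4 above 50-fold. The 4 largest stood apart from the rest, since the fourth largest fold was 75.1 and the fifth 31.6. These 4 sites did not neighbour each other. They lay in exons 288, 253, 275 and 174, and 3 of these 4 exons also held a site below 10-fold.

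Site 23, with the largest fold, covered 520 bases of exon 288 (chr2:76726061-76726580) and was 123-fold higher in cold, with the authors' p-value at 4.89e-08. Site 8 in exon 253 (chr2:76766501-76766880) was 90.0-fold higher, and site 20 in exon 275 (chr2:76736341-76736920) was 79.3-fold higher. Site 4 in exon 174 (chr2:76814521-76814900) was 75.1-fold higher and had the smallest p-value of the 28, 2.67e-08. The next site by size, site 25 in exon 307, was 31.6-fold higher.

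At the low end, site 17 in exon 275 (chr2:76740061-76740880) was 5.51-fold higher and site 5, which covered the whole of exon 201 (chr2:76795878-76796180), was 5.72-fold higher. Site 21 covered the whole of exon 283 (chr2:76730995-76731300) at 6.41-fold, and site 24 reached the 3' edge of exon 288 (chr2:76724778-76725580) at 6.59-fold. Site 18 in exon 275 (chr2:76738601-76739260) was 6.87-fold higher and had the largest p-value, 4.34e-06. The tables end at a fold of 4.01, so the smallest Ttn fold lay inside that limit, and sites with smaller changes are not analysed here.

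**Figure D1:**
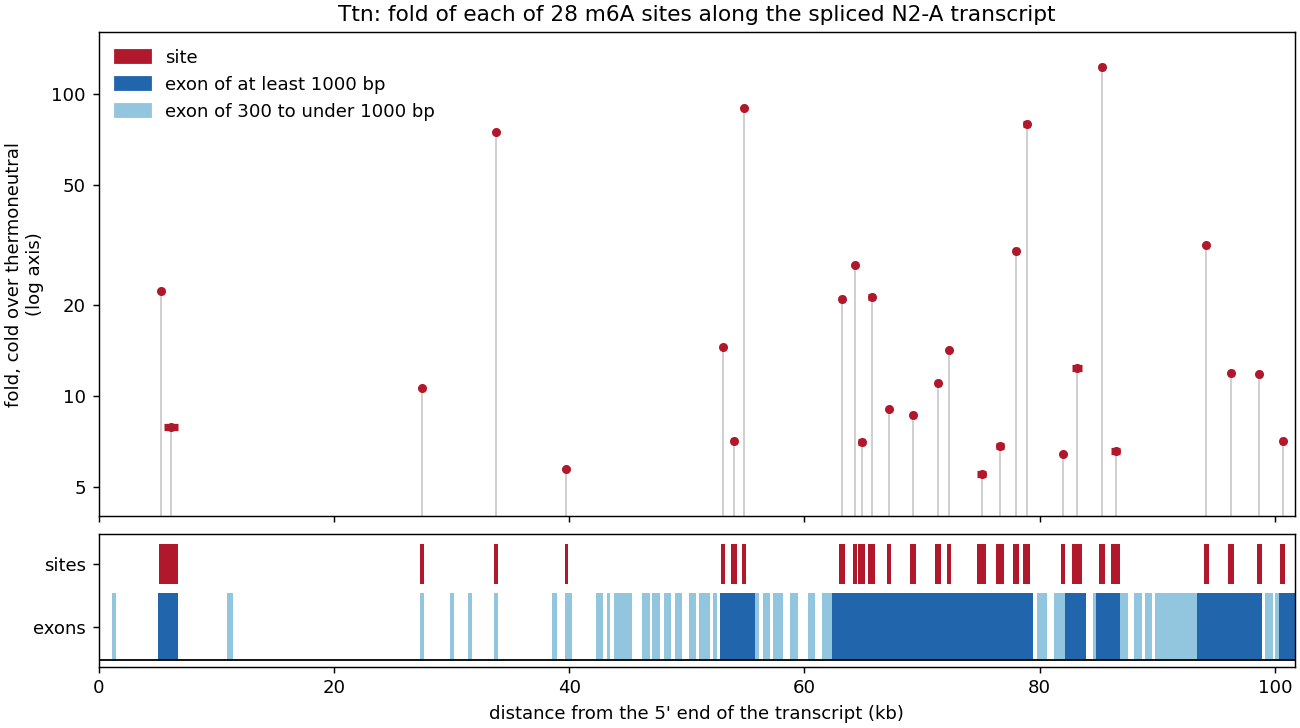
Fold of each Ttn site, cold over thermoneutral (log axis), against its distance from the 5' end of the spliced N2-A transcript in kb, above a map of the sites (red) and of exons of at least 1000 bp (dark blue) and of 300 to under 1000 bp (light blue). Points mark site midpoints, red bars on them the site length, and the 28 folds between 5.51 and 123 show no drift along the message.

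Sites were placed along the message by their midpoints. Site 1, the first, lay 5.26% along the transcript in exon 28 (chr2:76945481-76945940), and site 28, the last, lay 99.0% along in exon 313, the last exon (chr2:76704781-76705200). There were 5117 bases before the first site and 797 after the last. Past the midpoint of the transcript lay 23 sites, and 5 lay before it. The 5' part of the message is made of many short exons, with 245 of the 313 exons ending before the transcript midpoint, and the shortest listed site of any gene was 301 bp and sites had been trimmed to exons, so an exon under about 300 bp could hardly hold one. Counted over the bases in exons of at least 300 bp, there were 5.19 sites per 10 kb past the midpoint (44322 bases) and 4.66 per 10 kb before it (10724 bases). Most sites thus lay where most of the long exons lie, and per base of such exons the parts of the message on either side of the midpoint differed less than in their counts.

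Fold did not run with position. Spearman's rho of log2 fold with transcript position was -0.04 and Pearson's r was -0.03 over the 28 sites, which share a transcript and libraries and are not independent. The median fold was 11.9 for the 23 sites past the midpoint and 10.7 for the 5 before it. Large and small folds stood side by side, with rho at -0.34 between the log2 folds of neighbours over 27 pairs. The larger fold of a neighbouring pair was 2.63 times the smaller in the median, over 4 times in 9 pairs and 18.6 times between sites 23 and 24, which lie 480 bases apart in the same exon.

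All 28 sites lay inside a single exon of the N2-A transcript. The midpoints of 27 were in the coding sequence. Site 28 covered the stop codon (first base at position 76705033) and had its midpoint in the 3' UTR, 7.12-fold higher in cold. The antibody pull-down resolves a stretch of RNA and not a base, so a site is an interval that may hold several methylated adenosines or a single one.

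Of the 313 exons, 71 were of at least 300 bp and 7 of at least 1000 bp. The 7 longest exons made up 31.9% of the transcript and held 24 of the 28 sites, and each of them held at least 1. Of the 64 exons of 300 to under 1000 bp, 4 held a site and each held 1. Thus 11 of 71 exons of at least 300 bp held a site, 15.5%. Most of the 64 shorter ones were barely long enough or just too short, since 47 were of 300 to 320 bp, of which 2 held a site. Exons of exactly 300 bp are below the shortest listed site of 301 bp but count among the 71. The other 17 were of over 320 and under 1000 bp, of which 2 held a site. Sites covered 14586 bases, which was 14.3% of the transcript, 26.5% of the bases in exons of at least 300 bp and 40.7% of the bases in exons of at least 1000 bp.

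**Figure D2:**
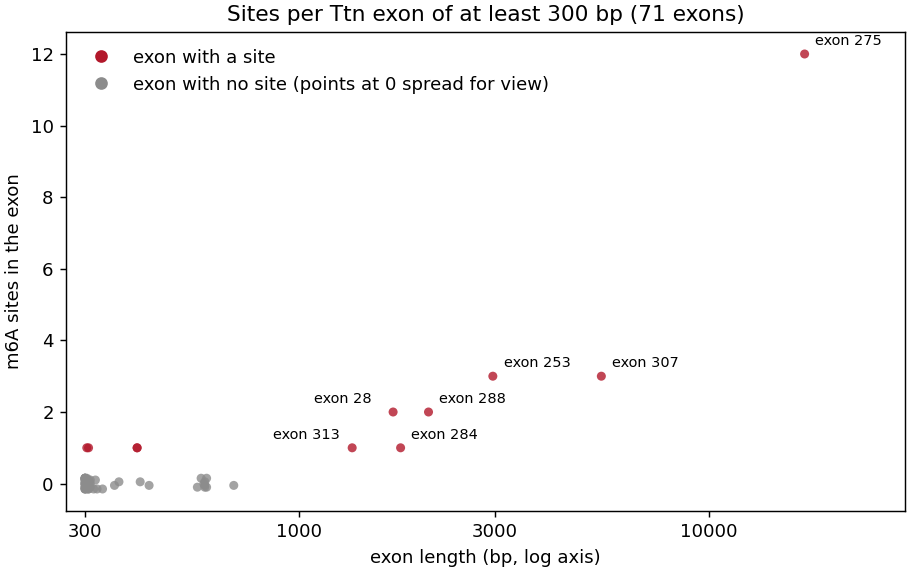
Number of m6A sites against exon length in bp (log axis) for the 71 Ttn exons of at least 300 bp, with exons that hold a site in red, exons with none in grey and the 7 exons of at least 1000 bp named. All 7 long exons hold a site, exon 275 holds 12, and 60 exons lie at 0.

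Exon 275, of 17106 bp and 16.8% of the transcript, codes for part of the A-band stretch and held 12 sites, 42.9% of all. Sites covered 38.0% of it. Per length it was not richer in sites than the other long exons, with 7.02 sites per 10 kb against 7.84 per 10 kb in the other 6 exons of at least 1000 bp, which held 12 sites in 15300 bases. Gaps between its sites ran between 80 and 2160 bp with a median of 800 bp.

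From the 5' end of exon 275, sites 9 (chr2:76752061-76752620) and 10 (chr2:76751021-76751400) were 21.0-fold and 27.2-fold higher in cold. Site 11 (chr2:76750341-76750940), 80 bp further on, was 7.04-fold higher, and site 12 (chr2:76749521-76750120) was 21.3-fold higher. Sites 13 (chr2:76748161-76748540), 14 (chr2:76746081-76746580) and 15 (chr2:76743941-76744460) were 9.05-fold, 8.67-fold and 11.0-fold higher. Site 16 (chr2:76743041-76743440) was 14.2-fold higher and, after the longest gap of this exon, sites 17 and 18 were the lowest at 5.51-fold and 6.87-fold. Site 19 (chr2:76737281-76737780) was 30.2-fold higher and site 20, the last, 79.3-fold. The first 2 and last 2 sites of the exon were thus between 21.0-fold and 79.3-fold, and the 8 between them between 5.51-fold and 21.3-fold with a median of 8.86. This shape was noticed after the values were seen and is given as a description.

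**Figure D3:**
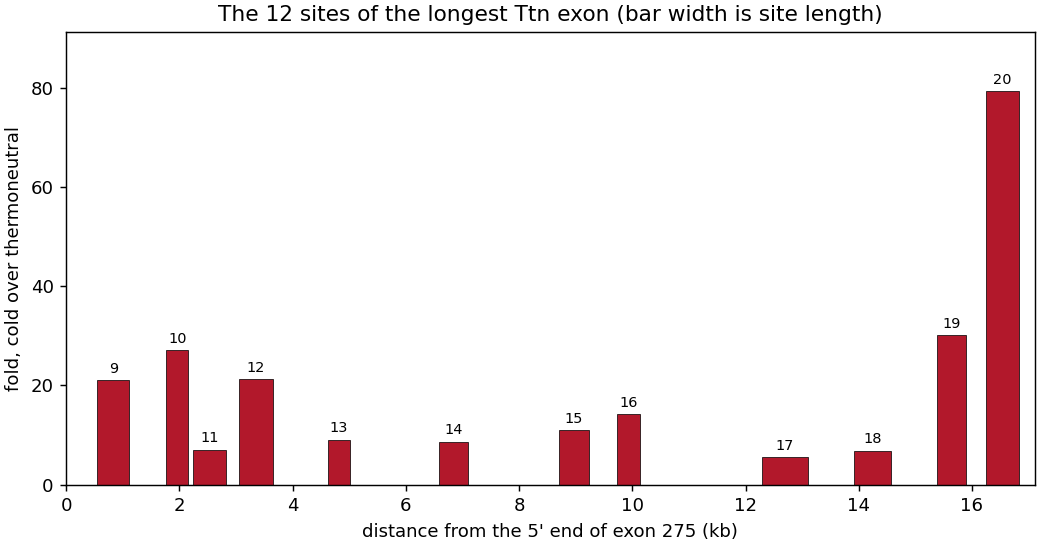
Fold of the 12 sites of exon 275, cold over thermoneutral, against distance from the 5' end of the exon in kb, with bar width the length of the site and the site number above each bar. The first 2 and last 2 sites have folds between 21.0 and 79.3, and the 8 inner sites folds between 5.51 and 21.3.

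Other long exons also held sites of unlike size. In exon 253 (2967 bp), site 6 (chr2:76768281-76768680) was 14.5-fold higher in cold, site 7 (chr2:76767321-76767780) 7.12-fold and site 8 90.0-fold, so that the largest was 12.6 times the smallest within the exon. In exon 307 (5459 bp), site 25 was 31.6-fold higher, site 26 (chr2:76711141-76711620) 11.9-fold and site 27 (chr2:76708761-76709140) 11.8-fold, with 2.68 times between the ends. In exon 28 (1694 bp), site 1 was 22.3-fold higher and site 2 (chr2:76944309-76945460) 7.91-fold. Together they covered 95.2% of that exon, and site 2 was the longest of the 28 at 1152 bp. Exon 288 (2067 bp) held the widest contrast, 18.6 times between sites 23 and 24. No value of a single library was there to set an error on such a contrast.

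Exons with 1 site were exon 284 (1767 bp), with site 22 (chr2:76729441-76730260) at 12.3-fold, the last exon, 313 (1346 bp), with site 28, and the 4 shorter exons 111, 174, 201 and 283. In these 4 the site covered the exon whole or nearly so. Site 3 (chr2:76863274-76863675) covered exon 111 of 402 bp at 10.7-fold and site 4 covered 94.5% of exon 174 of 402 bp at 75.1-fold. Exons 201 and 283, of 303 and 306 bp, were covered whole by sites 5 and 21, both under 7-fold.

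Along the transcript the 27 gaps between neighbouring sites ran between 20 and 20535 bp with a median of 1464 bp. Of these, 13 were under 1000 bp and 6 over 5000 bp. The shortest separated sites 1 and 2 in exon 28. The longest ran between site 2 in exon 28 and site 3 in exon 111, over 82 whole exons of which 1 was of at least 300 bp, and spanned 80633 bp of the genome. The next, of 12955 bp between sites 5 and 6, ran over 51 whole exons of which 23 were of at least 300 bp. The third, of 7860 bp between sites 8 and 9, ran over 21 exons of which 11 were of at least 300 bp. Exons of at least 300 bp were therefore scarce in the longest gap and frequent in the next 2. The median exon length in those 2 gaps was 297 and 300 bp, so many of these exons were barely long enough or just too short.

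Site length ran between 303 bp (site 5) and 1152 bp (site 2) with a median of 470 bp, against a median of 420 bp for the other 273 sites listed as higher. Median fold was 14.2 for the 9 sites of up to 400 bp, 11.5 for the 10 sites of over 400 and up to 520 bp and 7.91 for the 9 longer sites. The ranges of the classes overlapped widely, 5.72 to 90.0, 7.12 to 123 and 5.51 to 79.3. Spearman's correlation of log2 fold with length was -0.14 and r was -0.22 over 28 sites. Site 2 was farthest from the median length, and sites 17 and 22 tied for second at 820 bp. Without site 2 and either site 17 or site 22, rho was 0.00034. The other choice between the tied sites was not run, so no conclusion is drawn from this value.

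The authors' p-values of the 28 sites ran between 2.67e-08 and 4.34e-06 with a median of 5.05e-07, and the FDR between 3.38e-07 and 3.39e-05. Larger folds went with smaller p-values in Ttn, with rho at 0.80 between log2 fold and −log10 of the p-value over 28 sites, against 0.47 over the other 273 higher sites. Both values come from the same reads, so this is a property of the calls. Only the 4 sites above 50-fold had a p-value of at most 1e-07, 14.3% of the Ttn sites, against 164 of the other 273 higher sites (60.1%).

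**Figure D4:**
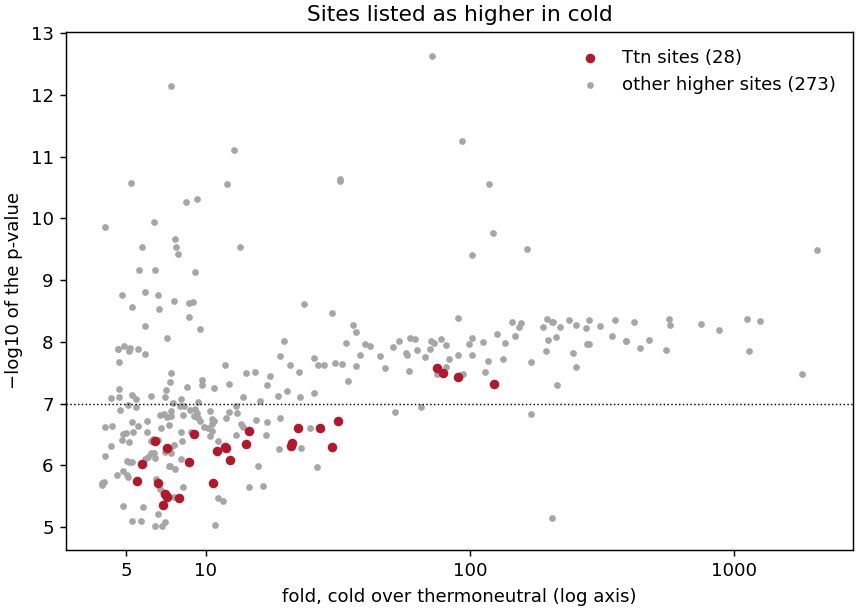
−log10 of the authors' p-value against fold, cold over thermoneutral (log axis), for the 28 Ttn sites (red) and the other 273 sites listed as higher in cold (grey), with a dotted line at a p-value of 1e-07. Ttn has 4 sites above the line, and the other higher sites have 164.

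Set beside the other 273 sites listed as higher in cold, the Ttn sites had a like median fold, 11.9 against 11.6, and a smaller upper quartile and maximum. A fold of at least 8 was found for 19 Ttn sites (67.9%) and 174 of the others (63.7%), one of at least 20 for 10 (35.7%) and 107 (39.2%), and one of at least 50 for 4 (14.3%) and 80 (29.3%). The upper quartile was 23.5 for Ttn and 70.7 for the others, whose largest fold was 2053.2. No Ttn fold was a whole multiple of 0.1, with a tolerance of 1e-06 on 10 times the fold, while 36 of the other 273 were. These shares were not tested, since every site entered the tables by its fold and p-value.

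Ttn held 9.30% of all 301 sites listed as higher in cold and 8.68% of the bases they cover. Among the 478 listed genes with a RefSeq transcript length, those with the most sites after Ttn were Prune2 and Dio2. Prune2 had 6 sites, of which 5 were higher. Dio2, the deiodinase that activates thyroid hormone in brown and beige fat, had 5, all higher. Of 574 listed genes 471 had 1 site. Titin is also by far the longest message. Per length Ttn had 0.275 sites per kb, against a median of 0.283 over the 478 genes with a RefSeq transcript length, of which 247 had more per kb. Each of these genes has at least 1 listed site, so short messages have high values by construction. This median therefore does not show whether Ttn sites are dense. Among the longer messages Ttn ranked high. Of the 478 genes, the 28 others with a transcript of over 10000 bases had a median of 1 site and at most 6. Ttn came second of these 29 by sites per kb, after Prune2 at 0.480 and barely ahead of Fat1 at 0.273. The 4 sites of Fat1 were all lower in cold. Sites covered 14.8% of the Fat1 transcript, against 14.3% of that of Ttn. Listed genes without a matched transcript length are not in this ranking. Neb, which codes for nebulin of the thin filament and had the second longest transcript of the 478 (22489 bases), had 2 sites, or 0.0889 per kb.

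The sequences of the sites were not used to choose them. On the transcribed strand GGAC occurred 70 times in the 28 sites, 4.80 per kb, against 143 times, 3.53 per kb, in the rest of the exons of at least 300 bp. In exons of at least 300 bp with no site the density was 3.67 per kb, and over all 313 exons 3.41 per kb. Within exon 275 the sites held 5.23 per kb and the rest of the exon 4.15 per kb. DRACH occurred 27.5 times per kb in sites and 23.3 times per kb in the rest of the exons of at least 300 bp. GC content differed little, 46.3% in sites and 47.3% in the rest.

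At least 1 GGAC was found in 26 of 28 sites, all but sites 16 and 26, with 0 to 6 per site and a median of 2. In windows of the median site length, 25 of the 28 sites held GGAC, against 75.0% of 521 windows outside sites. The windows outside sites overlap, since the rest of the exons of at least 300 bp holds 40460 bases. They come only from stretches at least as long as a window, so 521 does not count separate stretches. Every site held DRACH, 5 to 33 times, as did 100% of the windows. A match is a description of the letters and not a methylated base.

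Within Ttn, sites of larger fold were not richer in GGAC. The 4 sites above 50-fold held 5 GGAC in 1860 bases, 2.69 per kb, against 65 in the other 24 sites, 5.11 per kb. Spearman's correlation of log2 fold with GGAC per kb was -0.40 and r was -0.37 over 28 sites. With DRACH per kb rho was -0.13, and with GC content it was 0.03. The centres printed above held 1 GGAC in site 23 and 2 in site 17, while their DRACH matches went the other way, 9 and 6. Counts in 2 stretches do not show a trend over the 28 sites.

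The form of the message that carried the sites was looked at through its exons. The exon that is in N2-B and not in N2-A, of 2646 bp (chr2:76907308-76909953), codes for the spring element of heart titin and held 0 sites. Of the 28 sites, 27 lay in an exon that N2-B also uses, so these 27 do not tell the forms apart. The remaining site did not lie inside an exon of N2-B, and what it says of the form was not tested. The absence of a listed site in an exon says nothing of whether it was transcribed. An antisense gene on the plus strand, Gm13938, spans chr2:76722776-76786708 in the GENCODE annotation. It had 19 of the 28 sites within its span and 0 over its exons. The library kit is not stated to mark strand, so reads of its introns could not be told from reads of Ttn.

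Other genes of striated muscle also had listed sites. Of 70 symbols of the sarcomere and of titin binding, 9 were in the tables, and both counts include Ttn itself. Each of the 9 had higher sites only, against 36.1% of all 574 genes with higher sites only and 61.1% with lower sites only. Of 21900 protein-coding symbols of RefSeq, expressed in the pad or not, 2.48% had a listed site in either direction. The list was chosen with results of these data known, and its direction is not independent evidence. Without Ttn it held 10 sites with a median fold of 8.58, against 11.9 in Ttn and 11.8 over all higher sites. The proteins of the thick filament were the fast myosin heavy chains Myh2 (14.6-fold), Myh1 (11.6-fold) and Myh4 (10.8-fold), with 1 site each. Of the thin filament, nebulin (Neb) had a site 169-fold and a site 6.61-fold higher in cold, Tpm2 was 6.45-fold and Tpm1 5.46-fold higher, both of them tropomyosins, which many cell types also make in other forms. Des, the intermediate filament desmin that ties Z-discs together and is also made in smooth muscle, was 9.05-fold higher, and Xirp2, an actin-binding protein of muscle attachment sites, had sites 8.11-fold and 6.91-fold higher. The other 61 symbols of the list had no listed site, which says nothing of their level.

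Of 43 other skeletal muscle symbols, 8 were in the tables, 7 with higher sites only and 1 with lower sites only, beside the 36.1% and 61.1% of all listed genes. Jph1 (junctophilin, which joins the sarcoplasmic reticulum to the surface membrane) was 212-fold higher, Pygm (muscle glycogen phosphorylase) 136-fold and Srl (sarcalumenin, a calcium-binding protein of the sarcoplasmic reticulum) 117-fold. Atp2a1, the calcium pump of fast muscle, was 16.8-fold higher, Casq1 (calsequestrin) 8.19-fold, Trdn (triadin) 7.65-fold and Hrc (a histidine-rich calcium-binding protein of the reticulum) 4.88-fold. Asph was lower in cold, with sites 65.0-fold and 58.0-fold lower. It also codes for an aspartate hydroxylase found in many cell types.

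**Figure D5:**
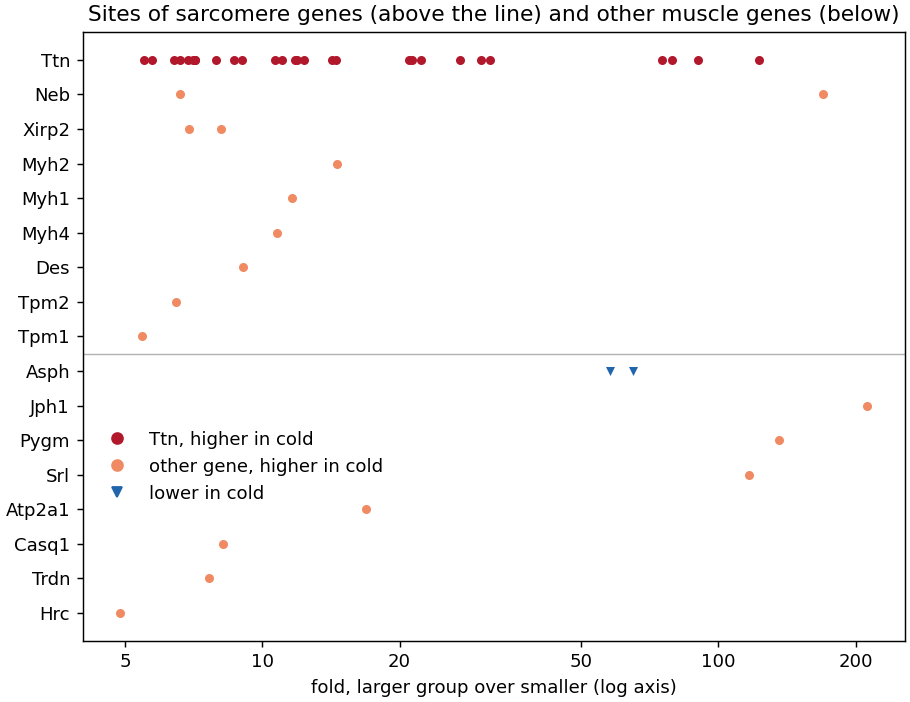
Fold of each listed site, the larger temperature group over the smaller (log axis), for the genes with a site in the sarcomere and titin binding list (above the grey line) and in the list of other skeletal muscle genes (below it). Circles are sites higher in cold, dark red for the 28 of Ttn and orange for other genes, and blue triangles are the 2 sites of Asph, lower in cold.

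Markers of other cells that hold titin or make up the pad were looked at in the same tables. None of 8 smooth muscle symbols and none of 7 heart symbols had a listed site, against 2.48% of all protein-coding symbols, so lists this short tell little. Of 6 adipocyte symbols 1 had a site, Lep, the hormone leptin, 4.96-fold lower in cold. Of 7 brown and beige adipocyte symbols, chosen with earlier results known, 5 were in the tables, each with higher sites only (36.1% of all listed genes), among them Ucp1, the uncoupling protein of brown fat mitochondria, at 204-fold, Cidea, a lipid droplet protein, at 9.29-fold, Ppargc1a, a coactivator of mitochondrial genes, at 17.0-fold and 4.16-fold, and Otop1, a proton channel, at 1137.8-fold and 36.9-fold. The Dio2 sites were between 18.8-fold and 567.9-fold higher. Sites of Ttn and of the muscle genes other than Asph were listed in the same direction as the brown and beige adipocyte sites, and the part of muscle cells in the Ttn result was not tested. The tables hold only sites that differed, so they cannot show whether the defining markers of adipocytes or of muscle fibres were present in a library.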

How the data were processed

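m6A in iWAT of mice kept for 7 days at 4 °C or 30 °C was measured by MeRIP-seq in 12 libraries, 3 per group, with groups taken from the sample titles. The study's methods give cutadapt for trimming, Hisat2 for alignment to mm10, MACS2 for peaks, HOMER for motifs and diffReps for differences between groups. The notes of the submitters give Bowtie 0.12.2 as the aligner in place of Hisat2, and mm8 beside mm10. Whether inputs entered the differential calls is not given in the sources used here.

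The 2 deposited tables hold sites up and sites down in C against T, read here as cold and thermoneutral, the initials of the sample titles. Per row the authors deposited a fold, which is a ratio on the linear scale with the larger group on top. A p-value and an FDR were deposited for each site, and a score that is −log10 of that p-value. Positions and length in bp were deposited too. These columns are the authors' own finished comparison, quoted per site as the caller's values, with no value of a single library (0 such columns), so the depth is unknown and n and SD cannot be given. The tables reach down to a fold of 4.01, up to a p-value of 9.65e-06 and down to a length of 301 bp.

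Starts on the 20 bp grid of the tables were read as counted from 1, since 481 of 481 sites with both ends on the grid then had a length that is a multiple of 20. Starts off the grid were read as counted from 0, and 5 of 5 such Ttn starts then fell on an exon start. Sites were placed on the curated RefSeq transcript of Ttn with the longest coding sequence (GRCm38.p6), from which the sequences come. Spearman's and Pearson's correlations are over sites and carry no p. GGAC and DRACH were sought on the transcribed strand only.

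Scripts used matplotlib 3.10.9, scipy 1.17.1, numpy 2.4.6 and pandas 2.3.3 under Python 3.11.15, and the functions were tested on simulated data. The members and the gene lists were chosen with earlier results of these data known. The text accounts for every Ttn site, names in full the 5 sites of largest and of smallest fold, the longest, the shortest, the first and the last and those of any exon with 3 or more sites, and names the list genes that have a site and genes with the most sites after Ttn. Alternatives were other limits on fold and p, other measures of position, length and gap, other exon sets and DRACH for GGAC. The sequence of 1 stretch is not reported here.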

Additional observations from a re-analysis of the deposited data

How the results depend on the processing

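All Ttn sites come from the table of higher sites, so no alternative could change their direction. Of 37 alternative values 26 stayed close to the value given above, 7 moved and 4 changed sign. Some of the 26 could not differ. No Ttn fold was a whole multiple of 0.1, no site overlapped an antisense exon and every site was of at least 303 bp. Order along the genome also keeps the ranks of position. The tally is therefore not a measure of robustness. With a fold of at least 8 (19 sites) the median fold was 21.0 and rho of fold with length was 0.033. With a p-value of at most 1e-07, 4 sites were left, with a median fold of 84.7, rho of 0.80 with position and 0.21 with length, a median gap of 20698 bp, 5.63% of exons of at least 300 bp with a site and 2.69 GGAC per kb. Both limits keep larger folds by construction, and rho over 4 sites says little. Without the 2 sites farthest from the median length, where sites 17 and 22 tie, rho of fold with length was 0.00034. DRACH in place of GGAC gave 27.5 per kb, which is a different quantity although it counts among the 7 that moved. Joining sites less than 100 bp apart left 26. The share of exons of at least 300 bp with a site, 15.5%, had a 95% interval of 8.0% to 26.0% (exact Clopper-Pearson, counting error only). This interval treats the exons as alike, which they are not. All 7 exons of at least 1000 bp held a site, against 4 of the 64 shorter ones. It measures no spread between animals or libraries. The GENCODE transcript, chosen after seeing the data, held 27 of the sites and gave rho of -0.04 with position.

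No paired analysis was possible because the tables hold the finished comparison and no value of a single library. Leaving out a replicate was not run for the same reason, and depth is unknown.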

Other observations

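The name of each listed site carries a running number of the peak caller, which followed the order of coordinates along every chromosome with 0 breaks and reached 20053. Between the first and the last Ttn site there were 52 such numbers, of which 28 were in the tables and 24 in neither, so 53.8% of the numbers in this stretch were listed, against 3.57% outside it. In the run of exon 275, 13 numbers held 12 listed sites and 1 that was not listed. In the run between exon 253 and the first site, 22 numbers held 6 listed sites and 16 that were not. What the numbers left out stand for is not given in the sources used here.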
